A study of Mus musculus with 2 samples.

Results

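The transcripts of 7 cartilage collagen genes were measured in cultured rib chondrocytes, the cells that make rib cartilage, by Affymetrix mouse genome arrays. The genes were Col2a1 (type II), Col9a1, Col9a2 and Col9a3 (type IX), Col11a1 and Col11a2 (type XI) and Col27a1 (type XXVII). The rule used names only: every probe set with a single platform symbol equal to such a name was taken. This gave 12 probe sets for 7 of the 18193 genes named on the array, and no probe set with several symbols held a member. The wild-type culture gave 1 array and the culture lacking miR-140, a microRNA abundant in cartilage, gave 1 array. Both came from mice aged 5 days with a strain label naming C57BL/6 and CBA. The study looked for messages that miR-140 may target. The sources used here do not say how many mice or cultures stand behind an array, or how the microRNA was deleted. With 1 array per group no spread between cultures can be had, so the values below describe this pair of arrays and no test was run. They are log2 signals, and a difference is the knockout minus the wild type.

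Cartilage owes its tensile strength to thin fibrils in which type II collagen is copolymerised with types IX and XI. Type XI collagen lies in the fibril core and limits its thickness, and its remaining chain is a product of Col2a1. Type IX collagen is a heterotrimer of its own 3 chains, has no fibrils of its own and decorates the fibril surface, where it links fibrils to other matrix proteins. Type XXVII is a fibrillar collagen that forms trimers of a single chain, and it is found in the growth plate and its surroundings. SOX9, with SOX5 and SOX6, drives these genes in chondrocytes through enhancers that mostly lie outside the basal promoter.

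Sequences are shown first for the deleted microRNA and then for the collagen start sites. All are RefSeq sequences of the mouse build GRCm38.p6, written 5′ to 3′. The mature strand miR-140-3p, encoded at chr8:107551288-107551308 on the plus strand within the gene Wwp2, is shown as a product of the microRNA that the knockout lacks. Capitals mark its seed, bases 2 to 8, which pairs with target messages.

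mmu-miR-140-3p: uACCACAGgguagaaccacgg

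Promoter windows of 250 bases before to 50 after an annotated start were matched by symbol for 5 of the 7 genes, with 2 starts for Col9a1. Col2a1 and Col9a3 had no window. The windows below show type IX and type XI chains whose signals differed to unequal extents between the arrays. Capitals mark 2 motifs, which do not overlap here. The SOX core is CAAAG, and a match on the opposite strand reads as CTTTG. The GC box is GGGCGG, and a match on the opposite strand reads as CCGCCC. All 4 windows lie on the plus strand, at chr1:24177360-24177659 for the upstream start of Col9a1, chr4:121039316-121039615 for Col9a2, chr3:114030290-114030589 for Col11a1 and chr17:34038888-34039187 for Col11a2.

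Col9a1: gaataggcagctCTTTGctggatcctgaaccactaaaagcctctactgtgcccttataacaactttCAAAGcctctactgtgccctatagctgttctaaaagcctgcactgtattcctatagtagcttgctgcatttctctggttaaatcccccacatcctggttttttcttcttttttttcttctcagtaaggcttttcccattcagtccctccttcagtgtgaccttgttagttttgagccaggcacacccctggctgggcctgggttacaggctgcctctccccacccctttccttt
Col9a2: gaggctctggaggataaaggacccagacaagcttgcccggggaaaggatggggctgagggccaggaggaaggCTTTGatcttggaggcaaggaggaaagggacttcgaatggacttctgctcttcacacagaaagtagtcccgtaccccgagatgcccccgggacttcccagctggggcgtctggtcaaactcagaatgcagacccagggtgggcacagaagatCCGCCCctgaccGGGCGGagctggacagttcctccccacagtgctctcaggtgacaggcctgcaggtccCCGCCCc
Col11a1: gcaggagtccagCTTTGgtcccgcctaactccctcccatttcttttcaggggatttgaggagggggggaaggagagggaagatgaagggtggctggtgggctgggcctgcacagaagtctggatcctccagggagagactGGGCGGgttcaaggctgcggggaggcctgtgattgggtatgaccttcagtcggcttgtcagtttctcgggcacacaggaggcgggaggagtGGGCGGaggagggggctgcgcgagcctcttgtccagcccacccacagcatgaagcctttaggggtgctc
Col11a2: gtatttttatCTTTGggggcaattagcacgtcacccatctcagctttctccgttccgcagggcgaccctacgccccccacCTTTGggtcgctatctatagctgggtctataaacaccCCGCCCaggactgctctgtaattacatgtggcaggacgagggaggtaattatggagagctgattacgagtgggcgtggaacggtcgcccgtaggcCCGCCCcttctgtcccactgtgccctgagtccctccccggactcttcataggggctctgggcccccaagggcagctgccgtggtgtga

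The 5-letter SOX core occurred in 4 of the 6 windows of these genes. It occurs in 53.9% of all 32851 windows of 300 bases in the RefSeq table, so its presence is common. The GC box occurred in 4 of 6 windows and in 35.7% of all windows. It was found in the windows of Col9a2 (3 matches) and of Col11a1, Col11a2 and Col27a1 (2 matches each) and in neither window of Col9a1. The 6-letter run TATAAA, searched on both strands, was found only in the Col11a2 window, at position -143 from the start, and is held by 13.6% of all windows. The GC content was 47.3% in the upstream and 55.7% in the downstream window of Col9a1, 61.7% for Col9a2, 62.3% for Col11a1, 59% for Col11a2 and 61.7% for Col27a1, beside a median of 52.7% over all windows. These matches describe letters only, and the arrays do not report which start site was used.

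The array medians were 6.291 for the wild type and 6.298 for the knockout. A gene was compared if its brightest probe set, that with the highest mean of both arrays, reached 7 in at least 1 array, which 9897 genes did. Their median difference was -0.05 and the central 95% lay between -0.69 and 0.47. The label chondrocyte was checked against 12 cartilage markers outside the collagens, of which 11 reached 7 in each array and Matn1 (6.12 and 4.99) in neither. These 11 markers were all at least 2-fold lower in the knockout array, where 1.22% of all genes compared were. Ucma stood at -3.69 and Snorc at -2.89. The list's summed linear signal was 37956 for the wild type against 8627 for the knockout. Xist, expressed from the inactive X chromosome, read 7.01 and 10.60, and the Y-linked genes Eif2s3y, Kdm5d and Uty read 8.86, 7.75 and 8.17 on the wild-type array and lay under the floor on the knockout array, at 4.18, 4.13 and 3.87. The labels give no sex, and sex and genotype cannot be told apart with 1 array each. The 3 probe sets of 18S ribosomal RNA differed by -0.31, -0.52 and -1.28. The gap between the 3′ and 5′ control probe sets of Actb was 0.81 for wild type and 0.54 for knockout, and that of Gapdh 0.13 and -0.01. The part of these differences in the collagen values was not tested.

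Col2a1, the main collagen of cartilage, read 13.98 on the wild-type array and 11.98 on the knockout array by its single probe set, a difference of -2.001 (4.004-fold lower). The knockout array thus kept 24.98% of the linear signal. Only 27 of the 9897 genes compared had a more negative difference. The wild-type value lay 0.22 below the highest signal on that array, at the top of the measured range. In whole cultures like these, fewer chondrocytes and less message per chondrocyte cannot be told apart.

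The 3 chains of type IX collagen had the widest range among the members. Col9a1, whose product carries the large globular amino-terminal domain, read 13.39 and 11.82 by its brightest probe set, a difference of -1.58 (2.98-fold lower). Its other probe set read 11.87 and 10.07, a difference of -1.80. Both probe sets were thus lower in the knockout array by similar amounts. Col9a2, encoding the chain of type IX that bears a glycosaminoglycan attachment site, read 9.86 and 6.06, a difference of -3.80 (13.9-fold lower). Its knockout signal lies under the floor of 7, where array signal is close to background. With values under 7 raised to 7 the difference was -2.86 (7.25-fold lower).

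Col9a3, encoding the remaining chain of type IX, read 12.26 and 9.28 by its brightest probe set, a difference of -2.99 (7.92-fold lower). A further probe set, annotated to the same source sequence, read 11.88 and 8.43, a difference of -3.45 (10.9-fold lower). The last Col9a3 probe set was dim in both arrays, at 5.73 and 5.01, and differed by -0.72. Averaging all 3 probe sets gave -2.39, and averaging the 2 above the floor gave -3.22. Both bright probe sets, which are not independent, placed Col9a3 well below Col9a1 in the knockout relative to the wild type.

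**Figure D1:**
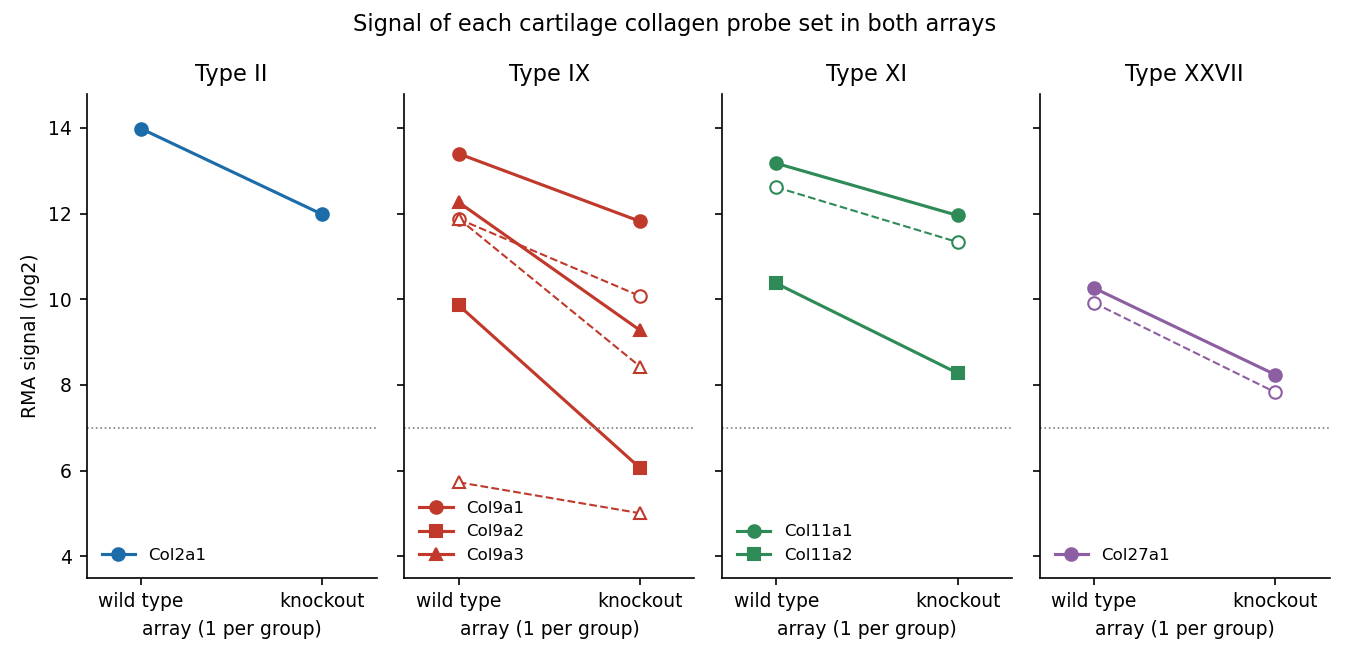
RMA signal (log2) of all 12 probe sets in the wild-type and knockout arrays, 1 panel per collagen type, with the brightest probe set of a gene as a filled symbol and full line and the others as open symbols and dashed lines. Every line slopes down to the knockout, the dotted line marks the floor of 7, and Col9a2 crosses it from 9.86 to 6.06.

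Type XI collagen gave the smallest difference among the members. Col11a1, encoding the chain whose retained amino-terminal domain reaches the fibril surface, read 13.17 and 11.95, a difference of -1.22 (2.32-fold lower). Its other probe set, annotated to the same source sequence, read 12.61 and 11.33, a difference of -1.28. The pair stood 0.06 apart but is not independent. Col11a2, encoding its partner chain, read 10.37 and 8.28 by a single probe set, a difference of -2.09 (4.27-fold lower). The knockout array thus kept 43.0% of the Col11a1 signal and 23.4% of the Col11a2 signal.

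Col27a1 read 10.26 and 8.24 by its brightest probe set, a difference of -2.02 (4.06-fold lower). Its other probe set, annotated to the same source sequence, read 9.92 and 7.83, a difference of -2.09. Both stood close to Col2a1 (-2.001) and Col11a2 (-2.09). Col27a1 is also the host of a microRNA: in the RefSeq gene table Mir455 lies within it, as Mir140 lies within Wwp2, and no other member holds a microRNA gene. Mature microRNAs were not measured by these arrays. Wwp2, the host of the deleted microRNA, read 9.65 and 7.13 by its brightest probe set, a difference of -2.52. Its 3 other probe sets that reached 7 on the wild-type array were under the floor on the knockout array, and with values under 7 raised to 7 they differed by -3.35, -0.75 and -0.42.

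All 7 members were at least 2-fold lower in the knockout array, whereas 1.22% of all genes compared were. At least 4-fold lower signal was found for 5 of the 7, against 0.283% of all genes. None was at least 2-fold higher, as 0.475% of all genes were. The median difference of the members was -2.02 (4.06-fold lower), beside -0.05 over all genes compared. With values under 7 raised to 7 all 7 members were still at least 2-fold lower, beside 98 of all genes. Among probe sets, 11 of the 12 reached the floor in at least 1 array and all 11 were at least 2-fold lower, against 1.12% of the 15862 single-symbol probe sets above it. Counted from the most negative difference, the members held ranks 4 (Col9a2), 10 (Col9a3), 24 (Col11a2), 27 (Col27a1), 28 (Col2a1), 48 (Col9a1) and 91 (Col11a1). The members made up 7 of the 121 genes at least 2-fold lower. Bright genes had a share close to that of all genes: of 1870 genes with a mean signal of at least 10, among them 4 members, 1.34% were at least 2-fold lower.

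**Figure D2:**
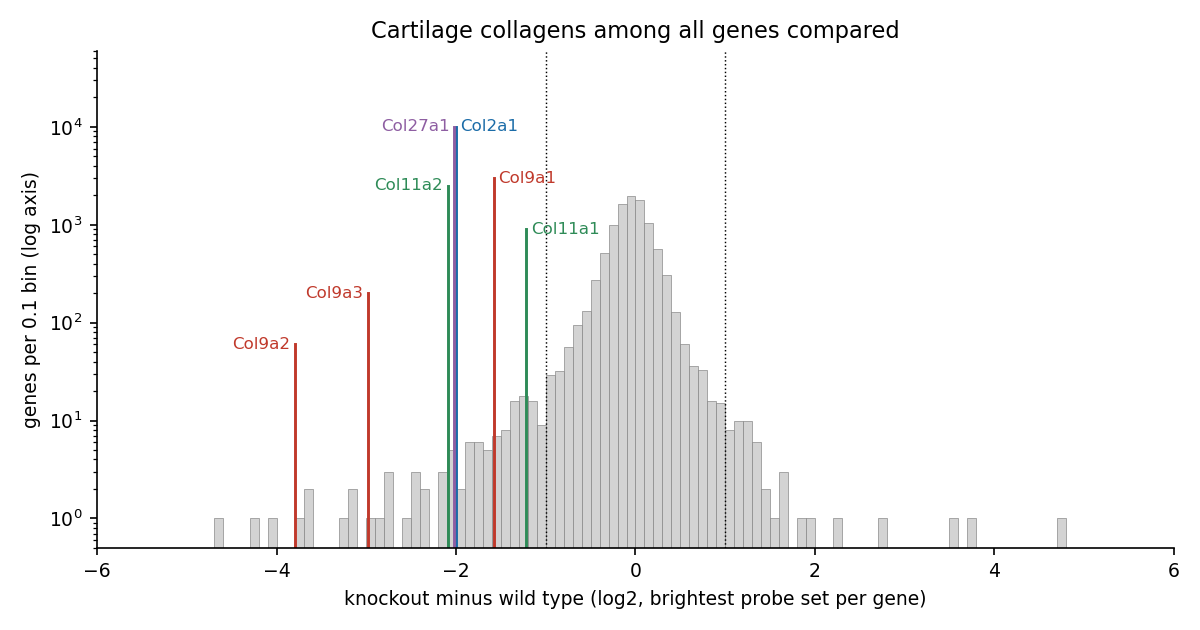
Number of genes (log axis) in bins of 0.1 of the knockout minus wild-type difference (log2) for the 9897 genes compared, with a vertical line at each member, coloured by collagen type; line heights carry no value. All 7 lines lie left of the dotted mark at -1, from Col11a1 at -1.22 to Col9a2 at -3.80.

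Chains of the same collagen type were then compared by the gap between their differences. A negative gap means that the chain named first was the lower in the knockout relative to the wild type. Within type IX, the gap of Col9a2 to Col9a1 was -2.22 (4.66-fold), and -1.998 by the other Col9a1 probe set. Since the knockout signal of Col9a2 is under the floor, the gap was -1.28 (2.43-fold) with values under 7 raised to 7. The gap of Col9a3 to Col9a1 was -1.41 (2.65-fold), and -1.87 to -1.19 over 4 pairs of probe sets. That of Col9a2 to Col9a3 was -0.81, and -0.35 against the other Col9a3 probe set. When values under 7 were raised to 7 the gap of Col9a2 to Col9a3 turned to 0.13, so no order is given between Col9a2 and Col9a3. Both of them were lower than Col9a1 under every setting run, the smallest gap being -0.70 for Col9a3 with the mean of all probe sets.

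Within type XI, the gap of Col11a2 to Col11a1 was -0.88 (1.84-fold), and -0.81 by the other Col11a1 probe set. Col2a1, which supplies the remaining chain of type XI, had a gap of -0.79 to Col11a1 and of 0.09 to Col11a2. The differences of Col2a1 and Col11a2 were thus much closer to each other than either was to Col11a1. In type IX, and between Col11a1 and Col11a2, the chain that differed least was the brighter on the wild-type array. These were Col9a1 (13.39) and Col11a1 (13.17), with Col9a3 at 12.26, Col11a2 at 10.37 and Col9a2 at 9.86. Col2a1, brighter still at 13.98, differed by -2.001, more than Col9a1 and Col11a1 did. The part of signal near the top of the range in these gaps was not tested.

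As a measure of how far probe sets for the same message can disagree, all 9252 pairs of probe sets that reached 7 in at least 1 array, from 3838 genes, were taken. Their median gap was 0.19 and 95% were smaller than 0.73. The gap of Col9a3 to Col9a1 was larger than 99.4% of these pairs, and that of Col11a2 to Col11a1 larger than 97.1%. For Col9a2 the gap to Col9a1 was ranked with values under 7 raised to 7 in it and in all pairs, and -1.28 was then larger in size than 99.5%. The gap between Col2a1 and Col11a2 was larger than 27.1% only. Pairs of probe sets that were at least 2-fold lower on average disagreed more, with a median gap of 0.34 over 91 pairs. Against these the Col9a3 gap exceeded 87.9% and the Col11a2 gap 79.1%. Probe sets are not replicates, and these shares describe the 2 arrays only.

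Collagens outside the cartilage group differed in direction between classes. Of 35 other collagen chains named on the array, 21 were compared, and their median difference was 0.01. Of the 21, 10 were lower and 11 higher, where 59.2% of all genes compared were lower. Higher were 5 of 6 fibrillar chains, 4 of 5 in the basement membrane class and 2 of 3 relatives of type IX. All 6 chains of type VI and other networks were lower, as was the 1 transmembrane chain. At least 2-fold higher signal was found for 2 of the 21, where 0.475% of all genes had it. At least 2-fold lower signal was found for 1, Col10a1, where 1.22% of all genes had it. The count of chains at least 2-fold lower was 0 once values under 7 were raised to 7. Among the fibrillar chains, Col3a1, abundant in loose connective tissue, read 11.10 and 12.47 (1.38), and its other probe set differed by 1.56. Col1a1 and Col1a2, the chains of the type I collagen of bone and skin, stood at 0.28 and 0.13. Col5a1 (0.37) and Col5a2 (0.17), which nucleate type I fibrils, were also higher, and Col5a3 stood at -0.17. Col24a1 stayed under the floor in both arrays.

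Type XIV and type XII collagens are relatives of type IX that lie on type I fibrils. Col14a1 read 7.84 and 9.05, a difference of 1.21. A further Col14a1 probe set, under the floor on the wild-type array, read 6.47 and 7.12 (0.65), short of 2-fold. Col12a1 stood at 0.20, and at 0.59 by its other probe set above the floor. Type VI collagen, which surrounds chondrocytes and many other cells, stood at -0.40 (Col6a1), -0.12 (Col6a2) and -0.06 (Col6a3). Col10a1, the collagen of hypertrophic chondrocytes, read 7.41 and 5.69 (-1.72). On the knockout array it was under the floor, and raised to 7 the difference was -0.41 (1.33-fold lower), short of 2-fold. The next farthest lower chain was Col8a1 at -0.46, with its other probe sets above the floor at -0.84 and -0.03, and the next farthest higher was Col18a1 at 0.39.

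Col2a1, Col11a1 and Col9a1 were each set against related chains of fibrous tissue. The gap of Col2a1 to Col1a1 was -2.28 (4.85-fold), and -2.86 by the other Col1a1 probe set. Its gap to Col3a1 was -3.38 (10.4-fold). Col11a1 had gaps of -1.58 to Col5a1 and -1.38 to Col5a2, its close relatives. Col9a1 had gaps of -1.77 to Col12a1 and -2.79 to Col14a1. Over all pairs of probe sets that reached the floor in 1 array or both, the gap nearest 0 was -1.38. These pairings were chosen after the values were seen and carry no test.

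**Figure D3:**
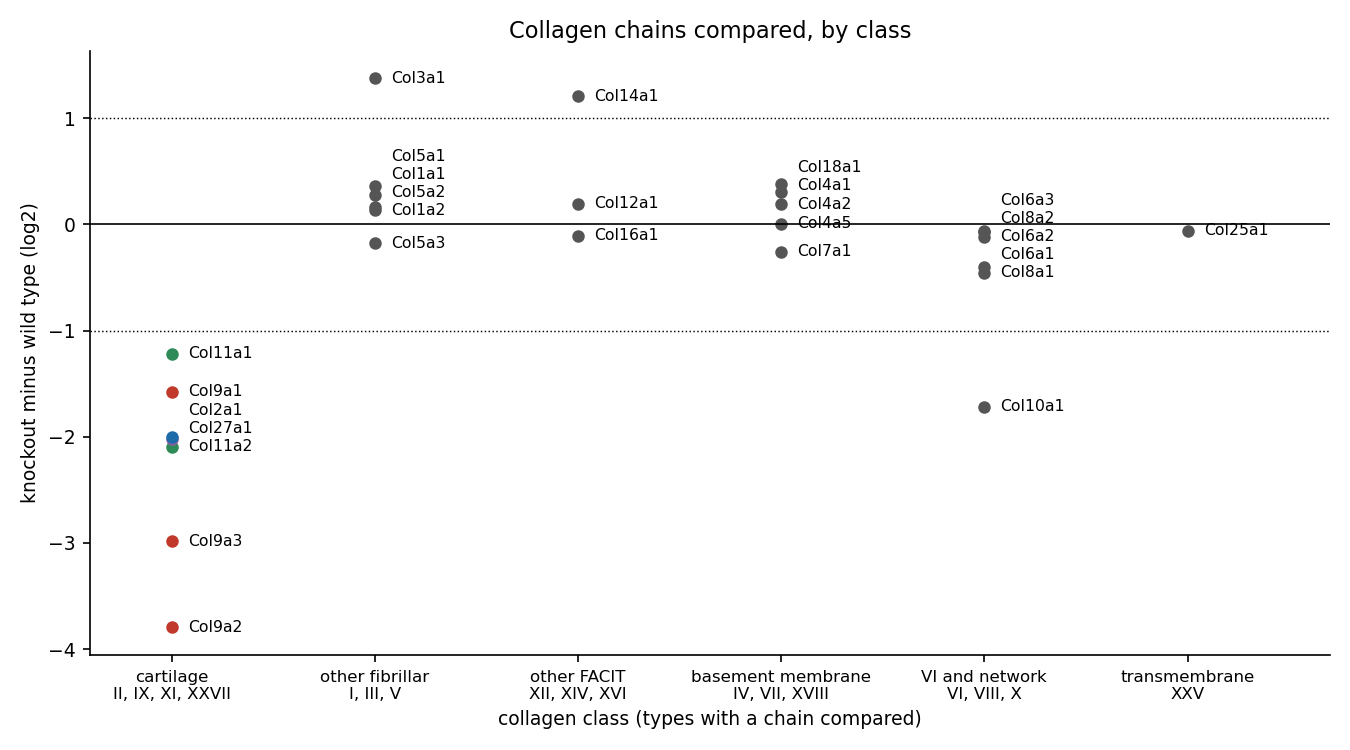
Knockout minus wild-type difference (log2) of each collagen chain compared, by class, with members coloured by type and other chains in grey; labels are moved up where points are close. The cartilage chains lie between -1.22 and -3.80, while of the other classes Col10a1, whose knockout signal is under the floor of 7, lies below -1, and Col3a1 and Col14a1 lie above 1.

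The 7 members lie on 6 chromosomes (1, 2, 3, 4, 15 and 17), with Col9a2 and Col27a1 both on chromosome 4. The 5 nearest genes compared on each side of each member, 70 in all, had a median difference of -0.06. None was at least 2-fold lower, which is close to the share of 1.22% over all genes compared. The lowest neighbour was Tcfl5, beside Col9a3, at -0.85. Col11a2 differs from the others in its position, since it lies in the major histocompatibility complex. Its neighbours Rxrb (-0.13), Slc39a7 (-0.26), Ring1 (-0.01) and Brd2 (-0.45) were less than 2-fold apart between the arrays. H2-K1, a class I gene and the 1 neighbour past 2-fold, stood at 2.72, and its 4 probe sets ranged from -0.19 to 2.72. H2-D1, another class I gene of the complex, had probe sets with large differences in opposite directions, such as 11.90 and 5.06 (-6.84, or -4.90 with the knockout raised to 7) and 8.01 and 11.75 (3.74). Col11a2 has a single probe set, so its difference could not be set against another, and the part of the locus in it was not tested. These neighbours were taken after the values were seen.

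Regulators of these genes included SOX9 and its partners. Sox9 read 8.96 and 7.78 by its brightest probe set, a difference of -1.18, and 8.94 and 7.52 by its next, a difference of -1.42. Sox6 stood at -0.49, with its 2 other probe sets above the floor at -0.62 and -0.64. Sox5 read 7.52 and 7.45 (-0.07), with others at -0.38 and, where the knockout signal was raised to 7, -0.51. Each member except Col11a1 was thus farther from 0 than both bright Sox9 probe sets, and Col11a1 (-1.22) lay between them. Of 11 SOX factors and partner proteins compared, all were lower (59.2% of all genes were), with a median of -0.17. Wwp2 and Sox9 were the 2 at least 2-fold lower, where 1.22% of all genes were. Wwp2 is also the host of the deleted microRNA, and the part of that deletion in its signal was not tested. Crebbp, a coactivator, stood at -0.26.

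Partners of the collagens in the cartilage matrix were split. Compared were 12 non-collagen proteins of the matrix around these fibrils, not all of them fibril-binding. Of the 12, 7 were at least 2-fold lower, where 1.22% of all genes compared were. The median of the 12 was -1.20, beside -0.05 over all genes compared. Acan, the aggrecan core protein, stood at -4.03, Hapln1, its link protein, at -2.45, and Comp, which binds types II and IX, at -1.67. Epyc stood at -1.51. Of these 15 listed partners, 6 are also in the chondrocyte marker list. Decorin and biglycan, which also occur in fibrous tissue, differed little (Dcn -0.17 and Bgn 0.06), and Lum was higher at 0.96.

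Enzymes and chaperones that modify and fold collagens were compared next. Of 18 compared, 17 were lower, where 59.2% of all genes compared were, and the median was -0.22. Colgalt2, a collagen galactosyltransferase, stood at -1.07 and was the 1 gene at least 2-fold lower, where 1.22% of all genes were. Its knockout signal of 6.89 lies under the floor, and raised to 7 the difference was -0.96 (1.94-fold lower), which ends that call. Plod2 (-0.78) hydroxylates lysine, P3h2 (-0.73) and P4ha2 (-0.49) hydroxylate proline. Serpinh1, the collagen chaperone HSP47, belongs to this list at -0.29 and P4hb at -0.28. Genes of collagen export and fibril assembly had a median of -0.12 over 13 compared. Of the 13, 2 were at least 2-fold lower, where 1.22% of all genes compared were. The 2 were Pcolce2, an enhancer of procollagen cleavage, at -1.78 and Loxl4, a lysyl oxidase relative, at -1.17. Creb3l2, a transcription factor for collagen export genes in chondrocytes, stood at -0.74 and Loxl3 at -0.48.

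Collagen receptors gave a median of -0.22 over 6 genes compared, with 1 at least 2-fold lower, where 1.22% of all genes were. That gene was Itga10, the integrin chain that pairs with beta 1 in chondrocytes, which read 9.26 and 8.16 (-1.10). Ddr1, a kinase receptor for collagens, stood at -0.83, Itga1 at -0.28 and Itgb1 at 0.29. Of 6 collagen-degrading proteases compared, 5 were higher and 1 lower, where 59.2% of all genes were lower, and the median was 0.47. Mmp3 (1.15) was at least 2-fold higher, as 0.475% of all genes were. Mmp13, the main collagenase acting on type II collagen, stood at 0.73, Ctsk at 0.49 and Mmp2 at 0.44.

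Markers of other cells were read in the same arrays. Among markers of fibroblasts and perichondrium, 9 of the 13 compared were higher and 4 lower, where 59.2% of all genes were lower. Their median was 0.13. The summed linear signal of the 19 named was 54024 for the wild type against 58434 for the knockout. Col3a1 (1.38), Fap (1.23) and Lum (0.96) were the farthest higher and Postn (-1.26) the farthest lower. Of the fibroblast list, Dpt, Mfap5, Pi16, Cd34, Tnxb and Thy1 did not reach 7 in either array. The knockout sum was thus 1.08 of the wild-type sum, where that of the 12 chondrocyte markers was 0.227. Bright genes weigh most in such sums, among them Fn1 (14.02 and 13.60). The part of cell mix in the collagen differences was not tested.

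Muscle, endothelial, blood and macrophage markers were mostly dim. Of 10 skeletal muscle markers 9 stayed under the floor in both arrays and Des stood at 0.14, and of 10 endothelial markers 8 stayed under it, with Eng at -0.28 and Kdr at -0.06. All 4 named erythroid markers were under the floor. Of 5 macrophage and leukocyte markers compared, Laptm5 stood at 0.49, Cd14 at 0.36, Adgre1 at -0.19 and Cd68 at 0.01, with Ptprc under the floor. Of fat cell markers, 4 were compared, with a median of 0.16. Fabp4, a fatty acid binding protein, was bright on both arrays (11.53 and 12.03, a difference of 0.51), while Adipoq and Lep were under the floor. The others were Lpl at 1.11, Cebpa at -0.48 and Pparg at -0.18. Both osteoblast markers compared were bright and lower, Tnfrsf11b at 11.83 and 10.48 (-1.35) and Omd at 11.92 and 11.02 (-0.90), and the bone genes Ibsp, Sp7 and Dmp1 were under the floor. Of 3 hypertrophic markers compared, Col10a1 stood at -1.72 (-0.41 with the knockout raised to 7), Pth1r at -0.13 and Mmp13 at 0.73, and Ihh and Alpl stayed under the floor.

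Genes with a difference closest to the members' median of -2.02 were found by absolute distance over the 2 arrays. The nearest 5 outside the members were Chil1 (-2.06), Scrg1 (-2.06), G0s2 (-2.12), Chrdl1 (-2.13) and Osgin2 (-1.91). Scrg1 is a chondrocyte gene of the marker list, and Chil1 encodes a secreted chitinase-like protein. The knockout signal of Chrdl1 (6.06) lies under the floor, and raised to 7 its difference was -1.19, away from the members' median. Likeness over 2 arrays is a single difference and nothing more.

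**Figure D4:**
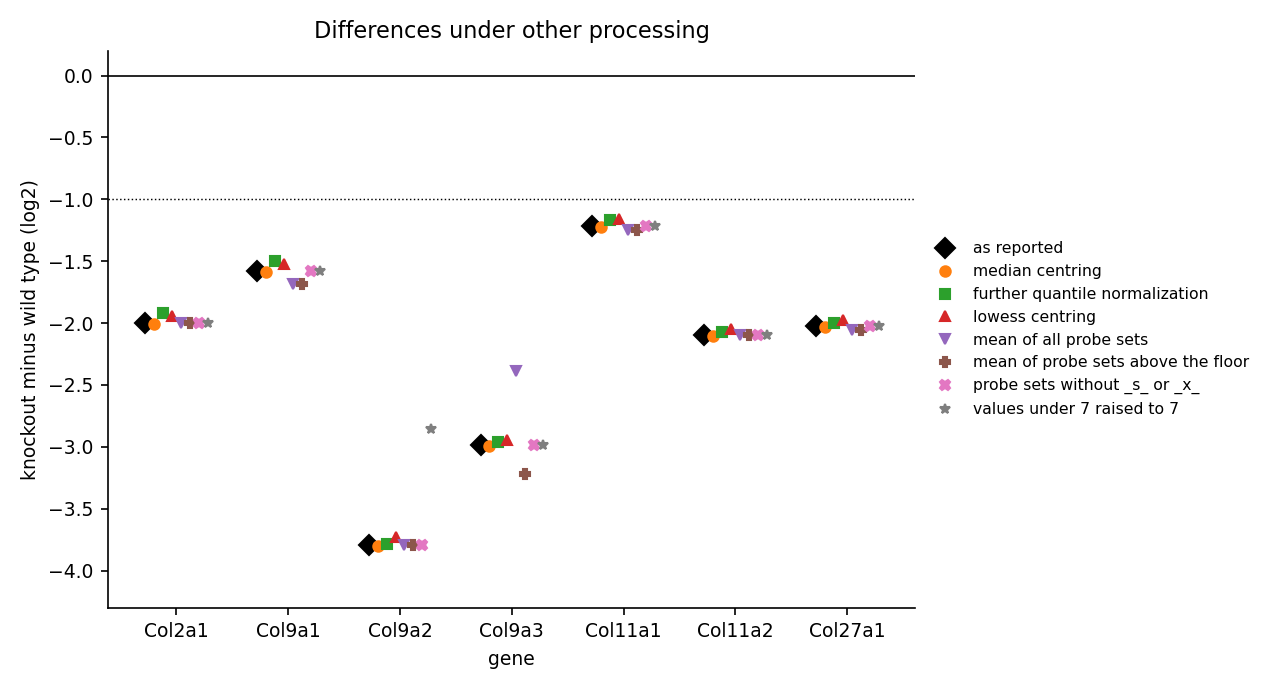
Knockout minus wild-type difference (log2) of each member as reported (black diamonds) and under 7 other settings (coloured symbols, offset sideways), with the dotted line at -1. All points lie below -1; the 2 that stand apart from their gene's others are Col9a2 with low values raised to 7 (-2.86) and Col9a3 with the mean of all probe sets (-2.39).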

How the data were processed

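Total RNA of 1 wild-type and 1 miR-140 knockout culture was hybridised to an array each, grouped by sample title. The deposited values are log2 signals that the authors made by RMA, per the labels' design text, in Affymetrix Expression Console 1.1, per the submitters' processing notes. RMA gives the arrays nearly the same distribution, so a general drop in messages cannot be seen, and differences of dim probe sets are compressed. The log2 scale was read from the values. Which arrays were normalized together, and probe positions, are not given in the sources used here.

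Control probe sets (64) were left out of gene values. Symbols came from the platform annotation, in which 34945 of the 45101 probe sets carry a single symbol, 932 several and 9160 none. The probe set with the highest mean stood for a gene, and genes with at least 7 in the higher array were compared. With 1 array per group there is no p-value, no standard error and no replicate check, and the number of arrays limits precision. Functions were tested on simulated data. Values were computed with Python 3.11.15, pandas 2.3.3 and statsmodels 0.14.6.

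The members and gene lists were chosen with earlier results of these data known. Named genes were all members, set chains of other collagens and the 3 farthest in each direction, up to 4 farthest genes of each other list with Sox9, Sox5 and Sox6 always, and the 5 genes nearest the members' median. Decorin, biglycan, Serpinh1, P4hb, the neighbours of Col11a2, H2-D1 and genes named as under the floor were added after values were seen. Other settings tried were centring on the median, quantile normalization applied again, centring by lowess (span 0.2), means of probe sets, probe sets without shared-probe suffixes, low values raised to 7, other floors (6, 8 and none) and thresholds of 1.5-fold and 4-fold. Neighbouring genes, pairings with other collagens and pairs of lower probe sets, and low values raised to 7 in the other lists, came after the data were seen.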

Additional observations from a re-analysis of the deposited data

How the results depend on the processing

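Of 128 values recomputed under other settings, 122 kept their sign and stayed within 1.5-fold of the reported value, 5 moved further and 1 changed sign. Many of the 128 could not change, so the 122 does not measure robustness. No brightest member probe set has a shared-probe suffix, gaps are untouched by centring on the median, and the other floors remove no member. Averaging leaves genes with a single probe set as they are. The count at the 4-fold threshold is among the 122. With values under 7 raised to 7, the Col9a2 difference was -2.86, its gap to Col9a1 -1.28, and its gap to Col9a3 turned to 0.13; the knockout signal of Col9a2 is the 1 value of the brightest probe sets that this setting changes. With the mean of all probe sets, which takes in the dim probe set of Col9a3, the Col9a3 difference was -2.39, its gap to Col9a1 -0.70 and the gap of Col9a2 to Col9a3 -1.41. The median of the members ranged from -2.05 to -1.98 over 10 settings, and the count past the threshold was 7 in each setting except the 4-fold threshold, where it was 5. The share of all genes past the threshold ranged from 0.715% with no floor to 1.39% with a floor of 8 at 2-fold, and was 3.56% at 1.5-fold. No paired analysis was possible because each group has 1 array, and for the same reason no array could be left out. With the same floor applied to the other lists, chosen after seeing the data, Col10a1 (-0.41) and Colgalt2 (-0.96) were no longer at least 2-fold lower. The number of arrays limits the precision, Col9a2 reads under the floor in the knockout array, and Col2a1, Col9a2 and Col11a2 have a single probe set each.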
